A study of Saccharomyces cerevisiae with 12 samples.

Results

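The comparison set the TOR2 mutant strain SH121 (MU) against its wild-type partner SH100 (WT) in budding yeast after 2 h at 37 °C. Its members were all yeast probe sets of the Affymetrix S98 array without the AFFX controls, 9275 of 9335, read on 4 of the 12 arrays of the series, the MU arrays A and B and the WT arrays A and B at 2 h. SH121 is isogenic to SH100 and carries a temperature-sensitive TOR2 allele that fails, at the higher temperature, in the function that TOR2 does not share with TOR1. Both strains grew in rich glucose medium (YPD), at 25 °C (0 h) or after 2 h or 6 h at 37 °C, and each of the 6 groups holds 2 independent cultures. The mutant is 1 allele in 1 strain, both strains went through the same shift, and total RNA was measured from whole cultures. An unequal number of cells and an unequal amount of RNA per cell cannot be told apart from such signals. The p-values below measure the spread between the 2 cultures of a group.

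TOR2 encodes a large protein kinase of the phosphatidylinositol kinase-like family. In TOR complex 1, where TOR1 or TOR2 can serve, it links nutrients to growth, and this complex is known to promote transcription by RNA polymerases I and III, which make rRNA and tRNA. In TOR complex 2 only TOR2 serves, and this complex acts on the polarized actin cytoskeleton, on sphingolipid synthesis and on the cell wall integrity pathway with its MAP kinase Slt2.

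No single gene separated the strains past the threshold at 2 h. Of the 9275 probe sets, 0 were called (0.0%) by limma at a Benjamini-Hochberg adjusted p under 0.05, and the smallest adjusted p was 0.89. An unadjusted p under 0.05 was given to 236 probe sets higher in MU (2.54%) and 272 lower (2.93%), together 5.48% of those tested. RDAM, the rank difference method of the study, rewritten here and run at an FDR of 10%, selected 18 probe sets as increased (0.194%) and 0 as decreased. The median log2 difference of MU minus WT was -0.01 and the median standard error 0.22, or 0.15 in the brighter 4637 probe sets. A difference beyond 1 on the log2 scale was measured for 437 probe sets, of which 12 lay among those brighter 4637.

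By the median over all probe sets, arrays of different strains differed about as much as duplicate arrays. The duplicate WT arrays differed by a median of 0.229 on the log2 scale and the duplicate MU arrays by 0.202, while the 4 pairs of a WT with an MU array differed by 0.191 to 0.238. The closest pairs were WT A with MU B (0.191) and WT B with MU A (0.193). Both MU arrays lay above both WT arrays for 1375 probe sets (14.8%) and below both for 1575 (17.0%), and these shares serve as the background for the counts that follow. The limma count of 0 became 14 without WT array B (14 higher, 0 lower), 11 without MU array B (7 higher, 4 lower) and 3 without WT array A (2 higher, 1 lower), and stayed at 0 without MU array A. RNA quality, read as the ratio of the 3′ to the 5′ signal of the control sets, was 1.38 and 1.5 on the WT arrays and 1.46 and 1.5 on the MU arrays for ACT1 (actin). For SPT15, the TATA-binding protein, it was 2.93 and 5.16 against 4.5 and 3.7, and for SRB4, a Mediator subunit, 2.53 and 1.66 against 2.23 and 2.0. For SPT15 and SRB4 the WT duplicates differed more than the MU duplicates, and both MU ratios lay between the WT ratios.

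**Figure D1:**
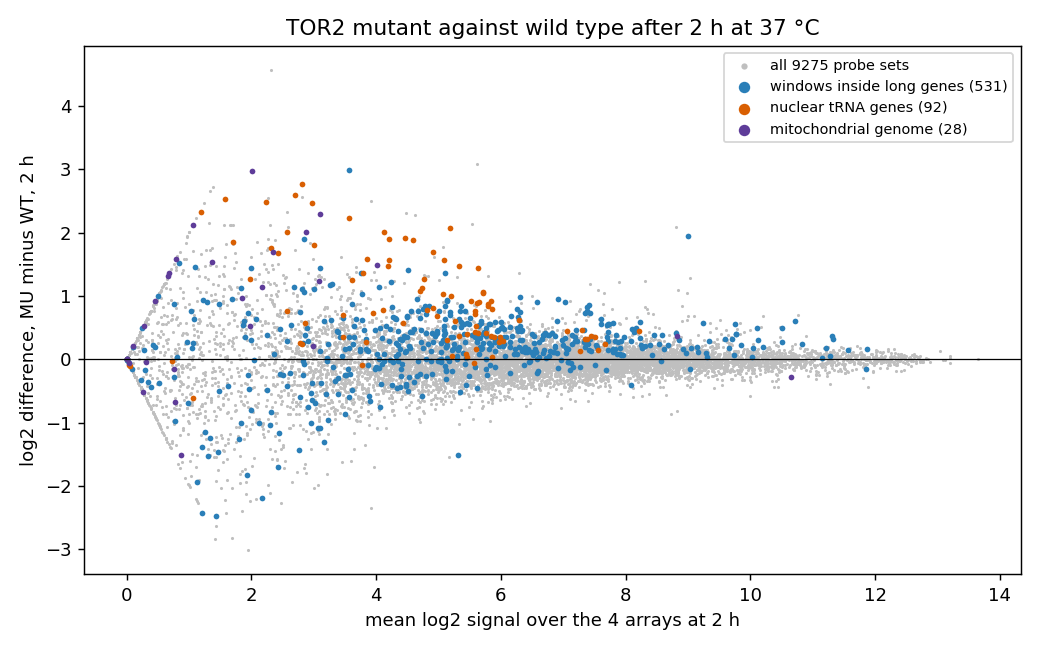
Each point is 1 probe set, with its mean log2 signal over the 4 arrays at 2 h on the x axis and the log2 difference of MU minus WT on the y axis. Most of the 9275 probe sets (grey) lie around 0, while the 92 probe sets of nuclear tRNA genes (orange), many of the 28 of the mitochondrial genome (purple) and the 531 windows inside long genes (blue) lie more often above it, at medians of 0.75, 0.72 and 0.22.

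The genes of the 2 kinases and the strain markers came first as a check of the samples. TOR2 (10763_at) gave signals of 307.9 and 259.5 on the WT arrays A and B and of 246.1 and 331.6 on the MU arrays A and B. The groups overlapped, with a log2 difference of 0.03 ± 0.18 (SE, n = 2 per strain, limma adjusted p = 1.0). A temperature-sensitive allele makes a message, so this level does not check the genotype. TOR1 (10950_at) also overlapped, at 159.5 and 131.4 against 145.2 and 152.8. LEU2 (6909_at), an enzyme of leucine synthesis and a common plasmid marker, read 1059.3 and 749.8 in WT against 698.0 and 1075.8 in MU. The REP1 probe set of the 2-micron plasmid (3952_at) read 420.5 and 291.9 against 249.6 and 454.2. TOR2, LEU2 and REP1 were thus each higher on WT array A than on WT array B, and higher on MU array B than on MU array A. The study lists the LEU2 and REP1 sets as decreased in SH121 at 0 h. At 2 h both overlapped between the strains, so these markers do not check the labels of the 2 h arrays. The closest array pairs given above, WT A with MU B and WT B with MU A, crossed the strains in the same way. The reason was not tested. The mating-type a-specific genes MFA1 and BAR1 were read in both strains, with MFA1 (6021_f_at) at 693.8 and 729.5 in WT and at 648.6 and 522.2 in MU, and the alpha-factor gene MF(ALPHA)1 at 30.8 and 43.4 against 42.4 and 34.5.

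Of the lists examined, the transfer RNA genes gave the most one-sided shift. Transfer RNAs carry amino acids to the ribosome and are made by RNA polymerase III. They lack the poly(A) tails of nuclear messages, and the paper reports labelling by the manufacturer's standard protocols. Whether their signals follow the amount of tRNA was not tested. The platform names 92 probe sets for 91 nuclear tRNA genes, and on 65 of them (70.7%) both MU arrays lay above both WT arrays, against 14.8% of all probe sets, while 2 (2.17%) lay below both, against 17.0%. Their median log2 difference was 0.75, ranging from -0.61 to 2.77, and 86 of the 92 values were positive. With 16 added to each signal before the log2, the median was 0.42 instead of 0.75. The median deposited signal over the 92 was 25.7 and 21.5 on the WT arrays A and B, and 46.5 and 45.0 on the MU arrays A and B. Both MU medians were therefore above both WT medians. No tRNA probe set passed the adjusted threshold, and 14 had an unadjusted p under 0.05, all of them higher in MU. Most of these sets end in _f_at, which marks probes shared by a gene family, so they are not 92 independent readings.

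The sets for glutamine and glycine tRNAs, by the names in the study's annotation, made up 9 of the 18 probe sets that RDAM selected. The glutamine set YNCL0009C (3804_f_at) read 22.7 and 14.8 in WT and 67.8 and 82.5 in MU, a log2 difference of 2.08 ± 0.67 (limma unadjusted p = 0.0145, adjusted p = 0.89). Both MU arrays lay well above both WT arrays. The other 6 glutamine sets behaved alike, with log2 differences from 1.44 to 1.92. They read the same few near-identical transcripts and count as 1 signal. The glycine set YNCB0005C (3508_f_at) read 14.4 and 6.0 in WT against 34.9 and 35.8 in MU, at 2.01 ± 0.86, and the glycine set YNCE0004C (3358_f_at) read 11.1 and 9.2 against 38.6 and 33.1, at 1.90 ± 0.69. In WT all 9 sets lay below the array medians, which were 74.4 to 75.8 on the 4 arrays.

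The shift was seen at each level of signal. Among the 30 tRNA sets with a mean log2 signal under 4, 18 lay above in MU (60.0%), and among the 50 between 4 and 6, 38 did (76.0%). Among the 12 sets brighter than 6, 9 lay above (75.0%) and 0 below, with a median difference of 0.33. All probe sets in those 3 ranges of signal lay above in MU in 14.3%, 15.5% and 14.8% of cases. The brightest named tRNA set, YNCJ0015W (3867_s_at), read 267.0 and 246.8 in WT against 377.8 and 320.7 in MU, a log2 difference of 0.45. At the low end the set for SUF3 (3397_f_at), a glycine tRNA gene first found as a frameshift suppressor, ran the other way at 3.7 and 2.5 against 2.1 and 1.5.

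The same sets can be followed to the other times. Between the strains at 0 h, the median log2 difference over the 92 sets was 0.42, and 31 sets lay above in MU (33.7%, against 15.8% of all probe sets) and 2 below (2.17%, against 19.1%). At 6 h the median was 0.31, with 13 sets above (14.1%, against 14.2%) and 3 below (3.26%, against 18.5%). The share above was thus over its background at 0 h and level with it at 6 h, and the share below was under its background at both times. The median signal over the sets at 0 h stood at 43.0 and 51.4 on the WT arrays and at 81.8 and 47.5 on the MU arrays, so that only MU array A stood above both WT arrays. At 6 h it stood at 20.6 and 30.9 on the WT arrays against 44.5 and 20.9 on the MU arrays, and again MU array A alone stood above. After 2 h, in contrast, both MU arrays did. The difference between the 2 h and 0 h strain contrasts had an unadjusted p under 0.05 for 3 of the 92 sets (4.12% of all probe sets), and that between 2 h and 6 h for 2 (6.03% of all), with 0 of the 9275 probe sets past the adjusted threshold in either. Against 0 h, the sets were at a median of -0.80 on the log2 scale in WT and of -0.56 in MU, 2 comparisons that share these 2 h arrays with the contrast above.

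The rRNA list held 6 probe sets, of which 4 lay above in MU (66.7%) and 1 below (16.7%), with a median log2 difference of 1.12. Its brightest members were 2 sets of the 5S rRNA, which like tRNA is made by RNA polymerase III. This small RNA of the large ribosomal subunit was read by RDN5-1 (3768_i_at) at 16.3 and 8.5 in WT and at 56.2 and 53.2 in MU, a log2 difference of 2.28 ± 0.92 (limma adjusted p = 0.89). RDN5-3 (3770_i_at) read 15.8 and 22.8 against 55.2 and 70.8, at 1.77 ± 0.65. Both MU arrays exceeded both WT arrays on the 2 sets, and RDAM selected both. The other sets were dim, and whether any of these signals follow the amount of rRNA was not tested. A further RDN5-1 set (3769_s_at) read 3.6 and 1.0 against 4.9 and 8.0. The 25S rRNA gene RDN25-1 had 1 set on each side, 3765_s_at at 7.2 and 6.0 against 7.3 and 10.2, and 3766_s_at at 8.6 and 10.1 against 3.1 and 8.0. The 18S set RDN18-1 (3767_s_at) overlapped at 1.0 and 1.5 against 1.7 and 1.0. The 63 sets of snoRNA and snRNA genes, which guide the modification and splicing of other RNAs, did not share the shift. They gave 9 above (14.3%, against 14.8% of all) and 10 below (15.9%, against 17.0%) and a median of -0.08. SNR42 (10410_at) read 19.6 and 19.1 in WT and 28.8 and 30.6 in MU, and SNR36 (8059_at) read 43.9 and 32.2 against 24.3 and 14.5.

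The mitochondrial genome was the second group with a one-sided shift. It encodes a few subunits of the respiratory chain and of the ATP synthase. Its messages, like tRNA and 5S rRNA, lack the poly(A) tails of nuclear messages. Whether the signals of such RNAs follow their amount was not tested. Of 28 probe sets for 19 genes, 16 lay above in MU (57.1%, against 14.8% of all) and 2 below (7.14%, against 17.0%), with a median log2 difference of 0.72. At 0 h 4 sets lay above (14.3%, near the 15.8% of all) and 0 below (against 19.1%), at a median of 0.17. At 6 h 9 lay above (32.1%, against 14.2%) and 3 below (10.7%, against 18.5%), at a median of 0.28. Unadjusted p under 0.05 at 2 h fell to 11 sets higher (2.54% of all probe sets) and 1 lower (2.93% of all), and 0 passed the adjusted threshold. ATP6 (3959_at), a subunit of the ATP synthase, read 1.8 and 1.7 in WT and 7.5 and 17.3 in MU. COB (3974_at), cytochrome b, read 4.8 and 4.0 against 14.9 and 24.7, a log2 difference of 2.29 ± 0.67. COX3 (3988_at), a subunit of cytochrome c oxidase, read 14.8 and 7.0 against 28.1 and 26.9. In each of the 3 genes both MU arrays lay above both WT arrays. The median signal of the 28 sets, however, stood only at 2.5 and 1.7 on the WT arrays and at 3.65 and 3.55 on the MU arrays, close to the lowest deposited value of 1.0, at which 8 sets stood on both WT arrays.

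The bright members of this genome differed less. COX1 (4005_at), a core subunit of cytochrome c oxidase, read 390.0 and 414.0 in WT and 511.2 and 519.2 in MU, a log2 difference of 0.37, which was 0.02 at 0 h and 1.21 at 6 h. OLI1 (3976_at), the ring subunit of the ATP synthase, read 1788.0 and 1791.2 against 1841.6 and 1168.6. The COX1 groups did not overlap, whereas OLI1 gave no separation, with MU array B as the low array. The single set below with an unadjusted p under 0.05 was SCEI (3981_at), an intron-encoded endonuclease, at 4.6 and 2.7 against 1.2 and 1.0. With 16 added to each signal before the log2, the median of the 28 sets was 0.11 instead of 0.72, and it was 0.37 without the dimmest 25% of probe sets. RDAM selected 3 further sets that the study's annotation places on mitochondrial DNA outside the named genes. Of these, 3994_at read 15.4 and 20.1 in WT and 130.9 and 156.7 in MU (3.08 ± 0.53, unadjusted p = 0.000428, adjusted p = 0.89), 3966_i_at read 1.0 and 1.1 against 16.7 and 35.7, and 3997_at read 16.1 and 20.4 against 57.6 and 49.6. The nuclear genes that serve the same organelle did not follow. Nuclear respiratory chain genes gave 0 sets above and 8 below of 40, where 17.0% of all probe sets lay below, at a median of -0.06.

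**Figure D2:**
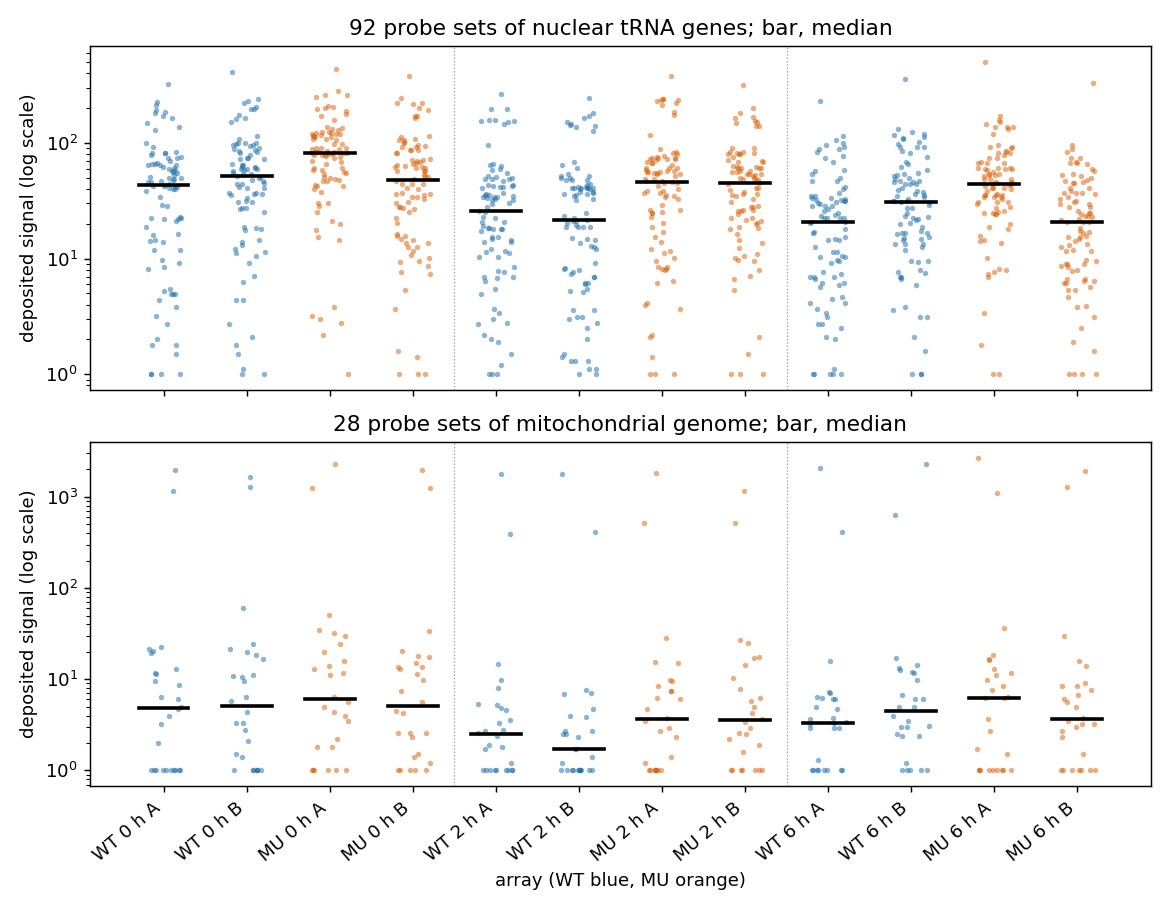
Deposited signal on a log axis of each of the 92 tRNA probe sets (upper panel) and the 28 of the mitochondrial genome (lower panel) on the 12 arrays, WT in blue and MU in orange, with a bar at each array's median. At 2 h the tRNA medians are 25.7 and 21.5 in WT against 46.5 and 45.0 in MU, while at 0 h and 6 h only MU array A stands above both WT arrays.

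RDAM also selected 2 sets for short unannotated reading frames known from transcript tags. The set 7050_at had the smallest unadjusted p of all the named sets. It read 180.8 and 245.5 in WT and 443.7 and 540.7 in MU, a log2 difference of 1.23 ± 0.19 (limma unadjusted p = 0.000221, adjusted p = 0.89). The set 11273_at read 9.5 and 11.9 against 41.2 and 60.8. Both separated the strains at 2 h, and their strain differences were -0.06 and 0.35 at 0 h and -0.16 and -0.45 at 6 h. The last 2 selected sets read windows of chromosome sequence. DNF2 (2382_s_at), a lipid-flipping ATPase of the plasma membrane, read 251.4 and 275.9 against 1053.6 and 952.7, and 2574_at read 21.3 and 24.6 against 290.2 and 32.8, with 1 MU array far above the other. The remaining sets of DNF2 did not share the size of that difference. Its 6373_g_at read 598.3 and 613.0 in WT against 665.0 and 617.9 in MU, a log2 difference of 0.09. The study's own list, chosen on these arrays, held 1 further set that RDAM as rewritten here did not select, a window of GEA2 (2281_s_at), an exchange factor of Golgi transport, at 25.2 and 19.6 against 58.8 and 52.3 (1.37 ± 0.48).

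Among the named genes of above-median signal whose arrays did not overlap, the 12 higher and 11 lower in MU with the lowest unadjusted p described here differed in the median size of their genes. None passed the threshold (adjusted p 0.89 for all 23). The 12 higher sets had log2 differences of 0.28 to 0.86 and a median coding length of 3988.5 bases (810 to 8019), and 7 of them were windows inside long genes. The 11 lower sets ran from -0.63 to -0.31, with a median coding length of 615.0 bases (321 to 1266) and 0 windows. They were taken from 585 sets above and 663 below that met the conditions of signal and symbol. Over the 6291 sets of nuclear protein-coding genes at any signal, 531 of them windows, the median coding length was 1329.0 bases. The lengths of the 585 and 663 sets were not compared.

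The higher sets outside the windows were those of GIC1, AXL2, TIR3, POP1 and MTC6. GIC1 (4489_at), an effector of the polarity GTPase Cdc42, read 68.1 and 81.2 in WT and 105.7 and 108.8 in MU, a log2 difference of 0.55 ± 0.15 (limma unadjusted p = 0.00575). AXL2 (4215_g_at), the marker of axial bud sites, read 94.2 and 90.5 against 133.3 and 114.5. TIR3 (4114_at), a cell wall mannoprotein, read 608.7 and 595.9 against 789.4 and 673.8. Both MU arrays were above both WT arrays for each. POP1 (9082_at), a protein of the RNases that process tRNA and rRNA, read 274.9 and 213.4 against 326.7 and 347.5, and MTC6 (4356_at) read 213.7 and 197.0 against 260.2 and 257.1. The windows in this group belonged to VIP1 (an inositol pyrophosphate kinase, 0.42), SEN1 (a helicase of transcription termination, 0.59), CYR1 (adenylate cyclase, 0.44), FAS2 (fatty acid synthase, 0.76), FKS1 (a glucan synthase of the wall, 0.40), PDR5 (a drug efflux pump, 0.86) and GCN1 (an activator of the Gcn2 kinase, 0.56).

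The lower sets each belonged to a different gene. RPN8 (8282_at), a proteasome lid subunit, read 330.6 and 338.3 in WT and 253.4 and 264.6 in MU, a log2 difference of -0.36 ± 0.07 (limma unadjusted p = 0.00143, the lowest of the 23). MRPS16 (7785_at), of the small mitochondrial ribosomal subunit, read 375.5 and 380.8 against 267.0 and 235.4. In both the MU arrays lay below the WT arrays by more than the cultures of either strain differed. ASF1 (11134_at), a histone chaperone, read 175.8 and 171.9 against 100.5 and 123.1. CDC36 of the Ccr4-Not complex (-0.36), the tubulin cofactor RBL2 (-0.44), the methionine aminopeptidase MAP2 (-0.31), the J-protein CAJ1 (-0.33), CHP1 (-0.33), the phosphatase LTP1 (-0.46), the Golgi protein BUG1 (-0.38) and LOC1, which acts in mRNA localization and ribosome assembly (-0.49), made up the rest.

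**Figure D3:**
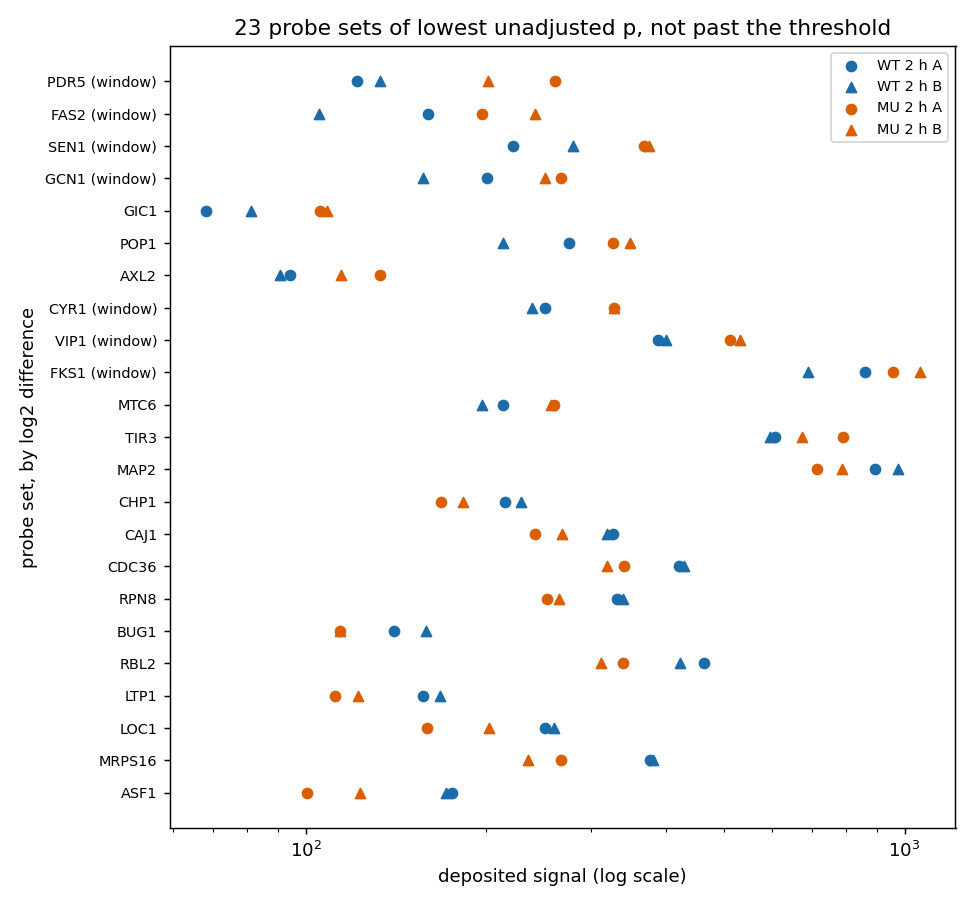
Deposited signal (x axis, log scale) of the 23 named probe sets of lowest unadjusted p, 1 row each, ordered by log2 difference, with WT arrays in blue, MU arrays in orange, circles for A and triangles for B. In every row the 2 MU points lie on one side of the 2 WT points, by design of the choice, and none of the 23 passed the adjusted threshold.

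The windows gave the third one-sided group. The S98 array carries 988 probe sets numbered 2100 to 3099, which the study's annotation describes as stretches of chromosome sequence, and 531 of them map to 1 gene, for 116 mostly long genes. Of these 531, 180 lay above in MU (33.9%, against 14.8% of all probe sets) and 38 below (7.16%, against 17.0%), with a median log2 difference of 0.22. The median was 0.14 without MU array B, 0.15 without WT array B and 0.28 without either A array. In 88 genes with at least 3 windows and another probe set, the windows exceeded the gene's other sets in 72, by a median of 0.26. At 0 h they did so in 63 genes by 0.16, and at 6 h in 56 genes by 0.13. On single arrays, the windows lay below the other sets of the gene by a median log2 of -1.68 and -1.73 in WT and of -1.53 and -1.51 in MU at 2 h, and by -1.82 to -1.68 on the 8 arrays of the other times. The 2 MU arrays at 2 h therefore had the smallest gap of the 12.

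FAS2, the alpha subunit of fatty acid synthase, shows the pattern within 1 gene. Its single other probe set (7973_at) read 2779.8 and 2472.1 in WT and 2637.8 and 2411.5 in MU, a log2 difference of -0.05. Its windows, taken in order of their numbers from 2601_at to 2607_s_at, differed by 1.23, 0.58, 0.76, 0.48, 0.31, 0.27 and 0.17. The window 2603_s_at read 160.4 and 105.5 against 196.7 and 241.5, and 2607_s_at, the brightest, read 3862.2 and 3246.1 against 3868.8 and 4051.8. The message thus gave no difference through 1 set and a higher MU signal through others. PDR5 was alike, with 8400_at at 0.03 and its windows 2641_g_at and 2643_s_at at 0.86 and 0.50. FKS1 had 9966_at at 0.06 and window values from -0.15 to 0.40. The descent with the number was not general: over 47 genes with at least 4 windows of log2 signal above 4, the first windows exceeded the last in 29 at 2 h, in 29 at 0 h and in 36 at 6 h. The place of the windows along each gene was not analysed here.

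Outside the windows, the strain difference at 2 h ran with coding length. The 689 sets for genes of up to 500 bases had a median log2 difference of -0.10, with 51 above (7.4%) and 189 below (27.4%). The 1500 sets of 501 to 1000 bases had a median of -0.07, with 117 above (7.8%) and 367 below (24.5%). Over the 5760 sets for nuclear protein-coding genes outside the windows, 11.1% lay above and 20.3% below. The medians were -0.02 at 1001 to 2000 bases, -0.01 at 2001 to 3000 and 0.01 beyond. The same bins lay between -0.03 and 0.00 at 0 h and between -0.06 and -0.01 at 6 h. Across the 5760 sets, which are not independent replicates, Spearman's rho of coding length with the strain difference was 0.173 at 2 h, -0.023 at 0 h and -0.052 at 6 h. For the shortest genes the median was -0.03 without MU array B, -0.07 without WT array B and -0.15 without either A array. This trend touches every list of short genes below, and its part in them was not tested.

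**Figure D4:**
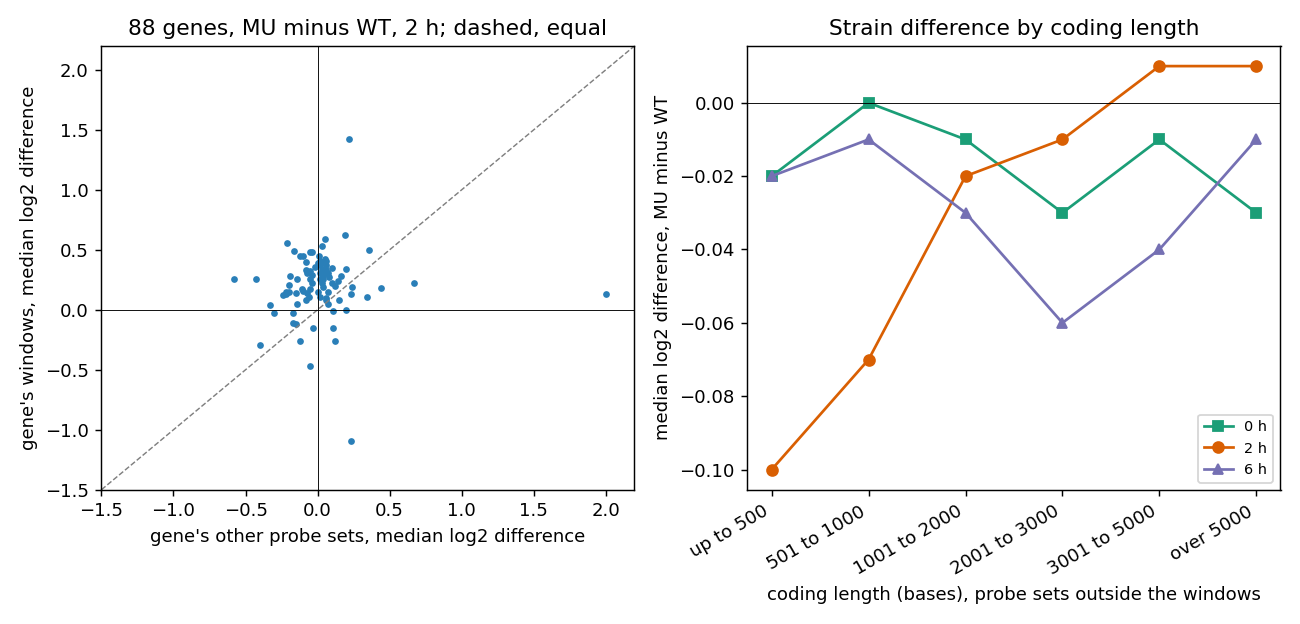
Left, each point is 1 of 88 genes, with the median log2 difference (MU minus WT, 2 h) of its other probe sets on the x axis and of its windows on the y axis, and a dashed line where they are equal, above which 72 genes lie. Right, the median log2 difference between the strains by coding length at 0, 2 and 6 h for probe sets outside the windows, which at 2 h goes from -0.10 for the shortest genes to 0.01 for the longest.

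Of the list of Slt2 and Rlm1 targets, genes of the cell wall that this kinase induces through its transcription factor, 13 of 24 probe sets lay above (54.2%, against 14.8% of all) and 0 below. The differences were small, with a median of 0.11 on the log2 scale. TIR1 (5711_at), a mannoprotein, read 291.4 and 279.3 in WT and 374.5 and 317.4 in MU, at 0.28 ± 0.11 (limma unadjusted p = 0.0323, adjusted p = 0.89). BGL2 (4712_at), a glucan-modifying enzyme, read 2844.2 and 2730.4 against 2906.3 and 3068.9. CCW14 (9926_at), a wall glycoprotein, read 4356.7 and 4743.8 against 5021.4 and 4932.1. The MU arrays were higher in each, by 0.28 or less on the log2 scale. Without the windows 8 of 18 sets lay above (44.4%, against 13.4% of all sets outside the windows), with a median of 0.07. The windows of GSC2, the stress-induced glucan synthase, accounted for part of the difference: 2207_s_at read 187.3 and 161.4 against 236.1 and 265.7, while its other set (4959_at) overlapped at 618.1 and 665.3 against 706.8 and 628.2. At 0 h the list gave 1 above (4.17%, against 15.8% of all) and 4 below (16.7%, against 19.1%), and at 6 h 8 above (33.3%, against 14.2%) and 0 below (against 18.5%).

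The Crz1 targets, which respond to calcium through calcineurin and share GSC2 with the list above, had 7 of 18 sets above (38.9%) and 0 below, but 2 of 12 above without the windows (16.7%, against 13.4% of all sets outside the windows). The cell wall integrity pathway (sensors, regulators and the kinase cascade) had 7 of 25 sets above (28.0%) and 7 below (28.0%), with a median of -0.03. Subunits of the TOR complexes gave 4 above and 5 below of 20, both over the shares over all probe sets (14.8% and 17.0%). SLM2 (8895_at), a lipid-binding partner of TOR complex 2, read 52.8 and 57.4 in WT and 37.3 and 36.5 in MU, at -0.55 ± 0.17 (limma unadjusted p = 0.0112, adjusted p = 0.89). The TOR1 window 3003_s_at read 102.3 and 81.8 against 109.5 and 132.5. SLM2 was thus below and that TOR1 window above WT on both arrays. The 8 windows of TOR1 had a median of 0.08, with 3 above and 1 below, and its other set overlapped. The kinases and membrane proteins downstream of complex 2 gave 1 above and 4 below of 16, under the share above and over the share below of all probe sets.

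Actin and polarity genes, the process named for the TOR2-unique function, were near the background at a median of -0.01. Of 53 sets, 10 lay above (18.9%, against 14.8% of all) and 7 below (13.2%, against 17.0%). ARP3 (10949_at), a core subunit of the actin-nucleating Arp2/3 complex, read 521.7 and 622.0 in WT and 920.2 and 631.6 in MU. A window of SPA2 (2947_s_at), a scaffold of the bud tip, read 112.1 and 142.8 against 214.5 and 230.5. RVS167 (6085_at), an actin patch protein, read 990.6 and 956.3 against 876.0 and 847.8. ARP3 rested on MU array A, its array B being close to WT array B, whereas SPA2 and RVS167 were clear of WT on both. Sphingolipid synthesis had 8 of 25 above (32.0%) and 2 below (8.0%), with a median of 0.02. Its first enzyme is made of LCB1 and LCB2, and after normalization these stood on opposite sides of WT: LCB1 (9347_at) read 1613.0 and 1422.4 against 1214.1 and 1322.5, and LCB2 (6431_at) read 2069.9 and 1803.5 against 2097.5 and 2069.3.

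The Hsf1 targets, chaperones induced by heat, gave 0 of 25 sets above and 8 below (32.0%, against 17.0% of all), with a median of -0.13. HSP82 (8010_i_at), the inducible HSP90, read 1718.9 and 1544.8 in WT and 1219.2 and 1188.6 in MU, at -0.43 ± 0.19 (limma unadjusted p = 0.0491, adjusted p = 0.899). SIS1 (8888_at), an essential J-protein, read 1053.1 and 889.3 against 827.6 and 843.5. HSP104 (10360_at), the disaggregase, read 442.1 and 414.8 against 310.2 and 386.0. The MU arrays lay below WT in all 3. The list's median against 0 h was 0.44 in WT and 0.45 in MU, with 13 of its sets called higher in each. The Msn2 and Msn4 targets of the general stress response gave 0 above and 3 below of 32 (9.38%), at -0.03, and HSP12 (5372_at) read 3060.0 and 3682.7 against 2984.3 and 3037.6. The duplicates of this list disagreed, with a median log2 signal of 8.8 and 9.1 on WT arrays A and B, and 9.11 and 8.81 on MU arrays A and B.

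The mitochondrial ribosomal proteins, with a median coding length of 679.5 bases, gave 3 of 68 sets above (4.41%) and 21 below (30.9%, against 17.0% of all), with a median of -0.12, and 8 had an unadjusted p under 0.05 on the lower side. MRPL32 (6881_at) read 143.6 and 160.1 in WT and 110.1 and 113.1 in MU, and MRPL25 (4912_at) read 330.3 and 382.0 against 271.9 and 288.0. Both were lower on each MU array. The cytosolic ribosomal proteins gave 9 of 105 above (8.57%) and 20 below (19.0%, near the 17.0% of all) at a median of -0.04, with RPS7B (8936_at) at 3203.1 and 3235.8 against 2928.6 and 2731.4. Ribosome biogenesis genes gave 10 of 89 above (11.2%) and 1 below (1.12%), both under the shares over all probe sets, at a median of 0.01. The duplicates of this list disagreed. Its median log2 signal was 8.05 and 7.74 on WT arrays A and B, and 7.84 and 8.18 on MU arrays A and B. NOG2 (8812_at), a GTPase of large subunit assembly, read 261.1 and 215.9 against 324.8 and 336.5.

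Nutrient genes gave a few separated members and medians near 0. The nitrogen catabolite list had 6 above and 6 below of 43, both under the shares over all probe sets (14.8% and 17.0%). Its members named here were picked by low unadjusted p, and the sets below are not named. The 5 sets of this list with an unadjusted p under 0.05 were all higher in MU, against 2.54% higher and 2.93% lower over all probe sets. Among them the arginine permease CAN1 (5771_at) read 653.6 and 605.8 in WT and 704.5 and 809.0 in MU, and the amino acid permease AGP1 (6907_at) read 375.7 and 419.2 against 500.1 and 460.0. The ammonium permease MEP3 (7626_at) read 539.3 and 622.9 against 705.4 and 643.1. The 3 permeases were higher on both MU arrays, at log2 differences of 0.27, 0.28 and 0.22. Hexose transport and glycolysis gave 7 above (21.2%) and 2 below (6.06%) of 33. The hexose transporter HXT1 (4430_at) read 705.0 and 914.2 against 1067.9 and 1024.4. The Gcn4 targets of amino acid synthesis gave 7 above (16.7%) and 4 below (9.52%) of 42 at a median of 0.00. The retrograde targets gave 1 and 1 of 12 (8.33% each).

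Cell cycle genes split. Of 17 cyclin and CDK sets, 5 lay above (29.4%, against 14.8% of all) and 6 below (35.3%, against 17.0%). CLN3 (11369_at), the first G1 cyclin, read 1370.0 and 1220.3 in WT and 1415.8 and 1581.9 in MU. SIC1 (10243_at), the CDK inhibitor of late mitosis and G1, read 156.7 and 175.5 against 119.0 and 128.5, at -0.41 ± 0.14 (limma unadjusted p = 0.0183, adjusted p = 0.89). CLN3 was above and SIC1 below on both MU arrays. Autophagy genes gave 4 above (14.8%) and 9 below (33.3%, against 17.0% of all) of 27. The sorting nexin ATG20 (6573_at) read 18.5 and 14.7 against 8.0 and 9.4. The proteasome gave 5 above (13.2%) and 9 below (23.7%) of 38. Its core subunit PUP3 (5625_at) read 1458.1 and 1517.4 against 1261.6 and 1261.7.

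**Figure D5:**
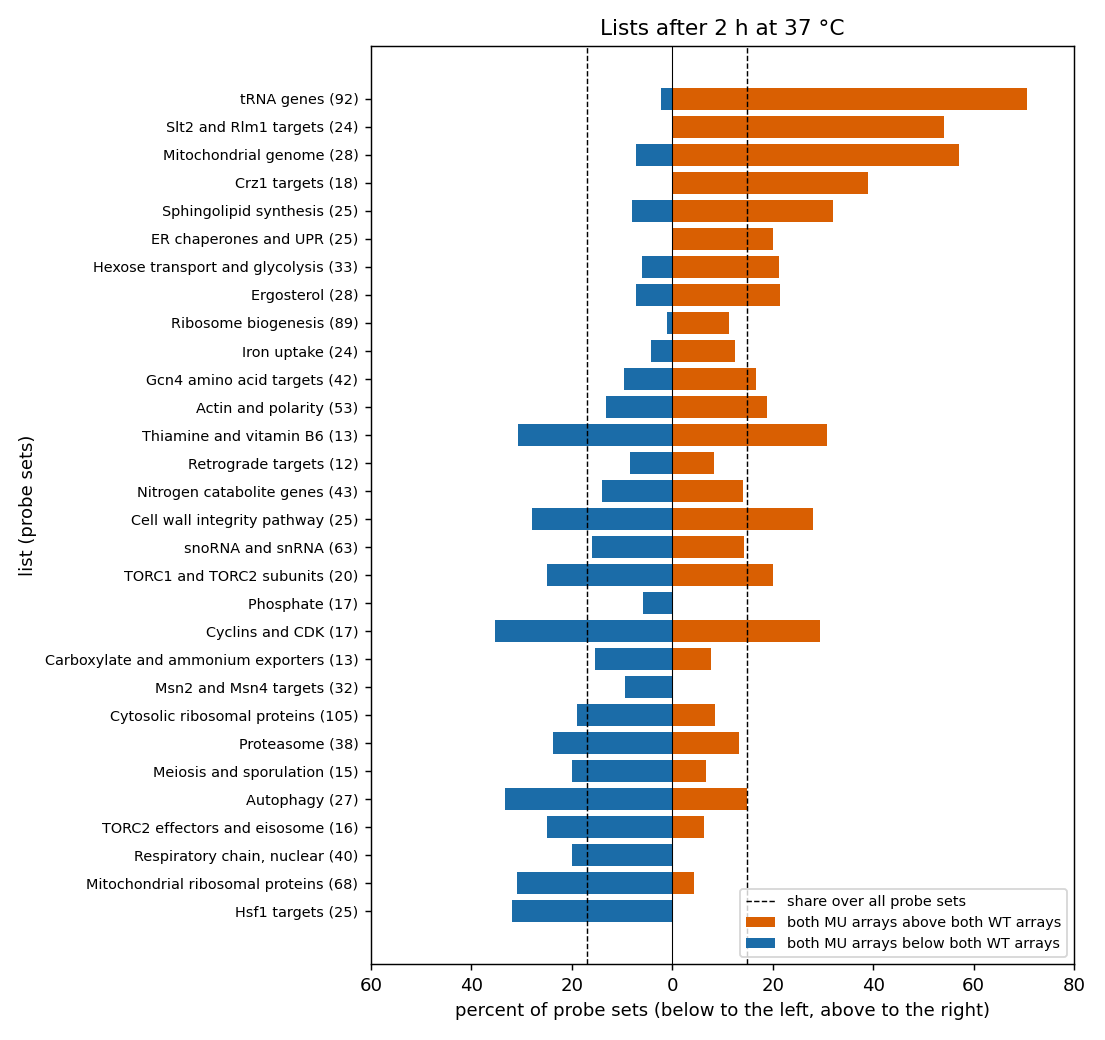
Percent of each list's probe sets on which both MU arrays lay above both WT arrays (orange, to the right) or below them (blue, to the left) at 2 h, for the lists of at least 12 probe sets, with the number of probe sets in brackets and dashed lines at the shares over all 9275 probe sets (14.8% above, 17.0% below). The tRNA genes (70.7%), the mitochondrial genome (57.1%) and the Slt2 and Rlm1 targets (54.2%) reach farthest to the right of the lists drawn. The cyclin and CDK (35.3%), autophagy (33.3%) and Hsf1 lists (32.0%) reach farthest to the left, and the cyclin and CDK list also reaches 29.4% to the right.

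The strain difference at 2 h correlated only weakly with that at the other times. Across the 9275 probe sets, which are not independent, it correlated with the strain difference at 0 h at a Pearson r of 0.08 and at 6 h at 0.045, from comparisons that share no array. The median absolute difference at 2 h was 0.153 and the median standard error 0.22, so an r this low cannot tell whether differences were shared. The tRNA sets and the windows leaned the same way at 0 h. At 0 h 3 probe sets were called between the strains and at 6 h 0. The response to the shift was far larger than the strain difference: against 0 h, limma called 803 probe sets (8.66%) in WT and 741 (7.99%) in MU at 2 h.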

How the data were processed

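Total RNA of 12 yeast cultures was hybridised to Affymetrix S98 arrays. The authors made the deposited values, linear signal intensities, from the images with Affymetrix's MAS software and their own Matlab scripts. All arrays share nearly the same distribution (lowest value 1.0, median 72.0 to 75.8), and no source used here names the step behind this. Array precision is limited by the 2 arrays per group.

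Log2 signals of 9275 probe sets (60 AFFX controls left out) were quantile-normalized and fitted with limma 3.58.1 (R 4.3.3) over 12 arrays in 6 groups, with a variance trend and 6 residual degrees of freedom. Calls were made at a Benjamini-Hochberg adjusted p under 0.05. An exact permutation test of 2 against 2 arrays cannot pass that threshold and was not run. Array positions (above, below) refer to normalized values, and printed signals are the deposited ones. RDAM was rewritten in Python 3.11.15 from the study's description, with the null distribution of its p-value product computed analytically and the share of invariant genes estimated over its lower part. Both were tested on simulated data.

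The platform annotation gave 1 symbol for 6504 tested probe sets, several for 328 and none for 2443. Biotypes and coding lengths came from RefSeq assembly R64. Sets with several symbols were left out of lists.

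The text draws the genes it names from the 12 probe sets each way with 1 symbol, arrays that do not overlap and above-median signal (by lowest p, since none was called; 1 of them is not reported here), the probe sets on the study's own list, which was chosen on these arrays, the 4 lowest-p members of each list, and strain markers. Other members of the mitochondrial genome, tRNA, rRNA and window sets were named after their values were seen. Members and lists were chosen with earlier results of these data known. The alternatives tried are given in the closing section.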

Additional observations from a re-analysis of the deposited data

Results flagged for a closer look

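Of the 23 named probe sets of lowest p, several separated the strains one way at 2 h and the opposite way at another time, with no overlap of the arrays at either. Over all probe sets, 15.8% lay above in MU and 19.1% below at 0 h, and 14.2% and 18.5% at 6 h. A few such cases among 23 sets are therefore no more than a description. These changes of direction were not tested gene by gene, and 0 of 9275 probe sets passed the adjusted threshold in limma for a difference between 2 h and 0 h or 6 h (unadjusted p under 0.05 for 382 and 559). The VIP1 window 2848_s_at was at 0.42 on the log2 scale at 2 h and at -0.23 at 6 h, GIC1 at 0.55 and -0.28, and MTC6 at 0.35 and -0.13. TIR3 was at 0.28 at 2 h, -0.18 at 0 h and -0.32 at 6 h. The SEN1 window 2871_s_at was at 0.59 at 2 h and -0.15 at 0 h, and LOC1 at -0.49 at 2 h and 0.01 at 0 h.

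The AFFX control sets were used in no comparison. Of 23 that read yeast RNA, 3 lay above WT on both MU arrays at 2 h, all of them sets for 18S rRNA. That count is near the share of 12.9% over all probe sets on deposited values. The other 18S sets overlapped, at log2 differences of 0.29 and -0.7, and the 25S sets ran from -0.98 to 0.78. The 3 sets above had log2 differences of 0.69, 1.45 and 1.25 on deposited values. The first read 11.1 and 6.3 in WT against 11.9 and 15.2 in MU, the second 1.2 and 1.0 against 2.0 and 4.5, and the third 6.5 and 2.6 against 11.0 and 8.7. The signals of these 3 sets all lay far below the array medians. On the other side, AFFX-YEL018w/_at, AFFX-YER148wM_at, AFFX-YER022wM_at and AFFX-25srRnad_at lay below WT on both MU arrays. Their log2 differences were -0.33, -0.46, -0.14 and -0.3. Of these, AFFX-YER148wM_at, a set for SPT15, read 1095.6 and 864.2 in WT against 649.1 and 771.0 in MU.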

How the results depend on the processing

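The count of 0 probe sets called between the strains at 2 h was also 0 on deposited values, with median scaling, with an offset of 16, without the dimmest 25%, without the variance trend, on the 4 arrays alone, on ranks and at an adjusted p under 0.10. It was 18 by RDAM and ranged from 0 to 14 when 1 array was left out. The strain difference at 2 h against 0 h gave 1 call without the variance trend, and 0 to 2 calls when 1 array was left out, as did that against 6 h. With the letters A and B as a replicate block the count was 0. The letters share no stated batch and their deviations correlated at -0.104 between the WT and MU arrays at 2 h. With the MU letters crossed, an alternative chosen after seeing the data, it was also 0. With 16 added, the tRNA median was 0.42 in place of 0.75, the mitochondrial 0.11 in place of 0.72 and the window median 0.15 in place of 0.22. Without the dimmest sets the mitochondrial median was 0.37 and the window median 0.27, and the window median was 0.19 on deposited values and 0.2 with median scaling. Over the arrays left out in turn, the medians ran from 0.65 to 0.72 (tRNA), 0.51 to 0.85 (mitochondrial genome), 0.14 to 0.28 (windows) and -0.15 to -0.03 (shortest genes). Of the 23 ranked probe sets and those on the RDAM and study lists, none reversed in these fits, and only 2574_at passed the threshold, without MU array B. Counts without the windows were added after seeing the data. With 2 arrays per group and many signals near the lowest value of 1.0, small differences of dim probe sets cannot be resolved.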
